A study of Homo sapiens with 4 samples.

Results

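HepG2-Twist1/Bcl-2, a HepG2 line that carries both Twist1 and Bcl-2 (the double line), was compared with HepG2-vector (the vector line) by miRNA microarray. HepG2 is an established human liver cancer cell line, described by the authors as hepatocellular carcinoma. The lines were said to express their constructs stably, HepG2-Twist1/Bcl-2 after co-transfection with a pcDNA-Twist1 and a pcDNA-Bcl-2 plasmid. HepG2-vector is titled as the vector line, but its construct is entered in the labels as none. Whether a line was a single clone or a pool is not given in the sources used here, and the array holds no probe for the Twist1 or Bcl-2 mRNA, so the constructs were not checked. The series holds 4 lines with 1 sample each, HepG2-Twist1 and HepG2-Bcl-2 being the others. HepG2-vector was labelled with Cy3 on array 1, beside HepG2-Twist1 in Cy5. HepG2-Twist1/Bcl-2 was labelled with Cy3 on array 2, beside HepG2-Bcl-2 in Cy5. The lines compared thus shared a dye and differed in the array and in both constructs, and the array, Twist1 and Bcl-2 cannot be told apart. Values of HepG2-Twist1 and HepG2-Bcl-2, given beside them below, differ from theirs in the dye as well. Both lines with Bcl-2 were on array 2 and both without it on array 1, so these cannot be told apart either. Of the 1212 human miRNAs on the array, the 289 with a normalized intensity of 32 or more in either line were taken as measured. The other 923 were under 32 in both.

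miRNAs are short RNAs that lead the Argonaute proteins to messenger RNAs, whose translation and stability they lower. Pairing rests mostly on the seed, bases 2 to 8 from the 5′ end, so miRNAs that share a seed have overlapping targets. Twist1 is a transcription factor that drives epithelial-mesenchymal transition (EMT), in which epithelial cells lose their contacts and become motile. Bcl-2 holds back apoptosis at the mitochondrion, and several miRNAs, among them miR-15a and miR-16, are known to repress it.

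The sequences that carry the main differences are shown first, as the targets of the array's probes, 5′ to 3′, with the seed in capitals. The let-7 family shares the seed GAGGUAG, and the members shown differ in few bases but not in the same measure between the lines.
let-7a: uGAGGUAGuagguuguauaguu
let-7e: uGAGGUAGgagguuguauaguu
let-7i: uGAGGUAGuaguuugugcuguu
miR-98: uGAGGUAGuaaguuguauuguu
With positions numbered from 1 at the first base and the base of let-7a written first, let-7e differed from let-7a by U9G and miR-98 by G11A and A19U. The seed AAAGUGC is that of 8 miRNAs on the array, 6 of them measured, and of the 4 shown miR-93 stood apart from the others.
miR-17: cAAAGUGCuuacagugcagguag
miR-20a: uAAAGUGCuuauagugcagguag
miR-106b: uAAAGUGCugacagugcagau
miR-93: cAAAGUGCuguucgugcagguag
With the base of miR-17 first, miR-20a differed by C1U and C12U, miR-106b by C1U, U10G and G20A over 21 bases, and miR-93 by U10G, A11U, C12U and A13C. The next 3 come from the precursor that also yields miR-17 and miR-20a, and show that its products carry other seeds.
miR-18a: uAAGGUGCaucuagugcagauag
miR-19b: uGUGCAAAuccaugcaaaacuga
miR-92a: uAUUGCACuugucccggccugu
The miR-26 family is shown because its members shared a seed and differed in how far they were apart between the lines.
miR-26a: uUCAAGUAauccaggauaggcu
miR-26b: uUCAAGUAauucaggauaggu
With the base of miR-26a first, miR-26b differed by C11U and C21U over 21 bases. The last 3 are miRNAs with large differences whose targets range from moderate to very high G and C content.
miR-1246: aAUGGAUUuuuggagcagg
miR-4281: gGGUCCCGgggagggggg
miR-1915: cCCCAGGGcgacgcggcggg
In RefSeq on GRCh38.p14, let-7e lies on the plus strand at chr19:51692793-51692814, miR-98 on the minus strand at chrX:53556299-53556320, and let-7i on the plus strand at chr12:62603691-62603712. miR-17 (chr13:91350618-91350640), miR-18a (chr13:91350756-91350778), miR-20a (chr13:91351072-91351094), miR-19b (chr13:91351245-91351267) and miR-92a (chr13:91351361-91351382) follow each other on the plus strand. miR-106b (chr7:100094043-100094063) and miR-93 (chr7:100093815-100093837) lie on the minus strand, in a cluster hosted by MCM7. miR-26b lies on the plus strand at chr2:218402657-218402677, inside CTDSP1. miR-1246 (chr2:176601024-176601042), miR-4281 (chr5:176629449-176629466) and miR-1915 (chr10:21496576-21496595) lie on the minus strand. let-7a, miR-19b, miR-92a and miR-26a have further genomic copies that give the same mature sequence, and 1 probe reads them all.

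Of the 289 measured miRNAs, 189 were at 32 or more in both lines, 70 in HepG2-vector only and 30 in HepG2-Twist1/Bcl-2 only. HepG2-Twist1/Bcl-2 was at least 2-fold above HepG2-vector for 31 (10.7% of those measured) and at least 2-fold below it for 43 (14.9%). The other 215 were not called. Those of them that were under 32 in 1 line have only a lower bound on the fold, short of 2-fold. With the scanner intensities less the empty spots in place of the deposited values, the split was 65 higher and 43 lower, and the median of the measured miRNAs moved from -0.10 to 0.09 on the log2 scale. With 1 sample per line there is no test between the lines, so these are calls by size, after values under 32 were set to 32. The median log2 ratio of HepG2-Twist1/Bcl-2 over HepG2-vector was -0.10 (quartiles -0.62 and 0.49), with 122 miRNAs above 0 and 167 below. Where both lines reached 100 (126 miRNAs) it was -0.02, and 14 of them were called higher and 19 lower.

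Each miRNA had 3 repeat spots on each array. The combined SD of the log2 scanner intensities, above the empty spots, over the spots of both lines had a median of 0.22 where both lines reached 100 (126 miRNAs) and of 0.48 among those that reached 32 but not 100 in either line. This SD is given after ± for single miRNAs below. It covers spot-to-spot error and no difference between cultures or arrays. After the median empty spot was subtracted, spot values under 32 were set to 32. A line with all 3 spots there has an SD of 0, as the double line had for miR-18b and miR-29c. The combined SD then understates the spot error of dim miRNAs, also in the counts that follow. Of the called miRNAs, 27 of the 31 higher and 36 of the 43 lower lay more than 2 combined spot SDs from 0. All 3 spots of the brighter line lay above all 3 of the other for 29 of the 31 and 37 of the 43. Here, and for single spots given below, the scanner intensities are raw, without subtraction of empty spots or scaling between arrays. The median empty spot was higher on array 2, at 159 against 110.5. For 4 of the higher and 14 of the lower miRNAs the dimmer line was under 32, so the fold is a lower bound, the brighter value over 32.

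**Figure D1:**
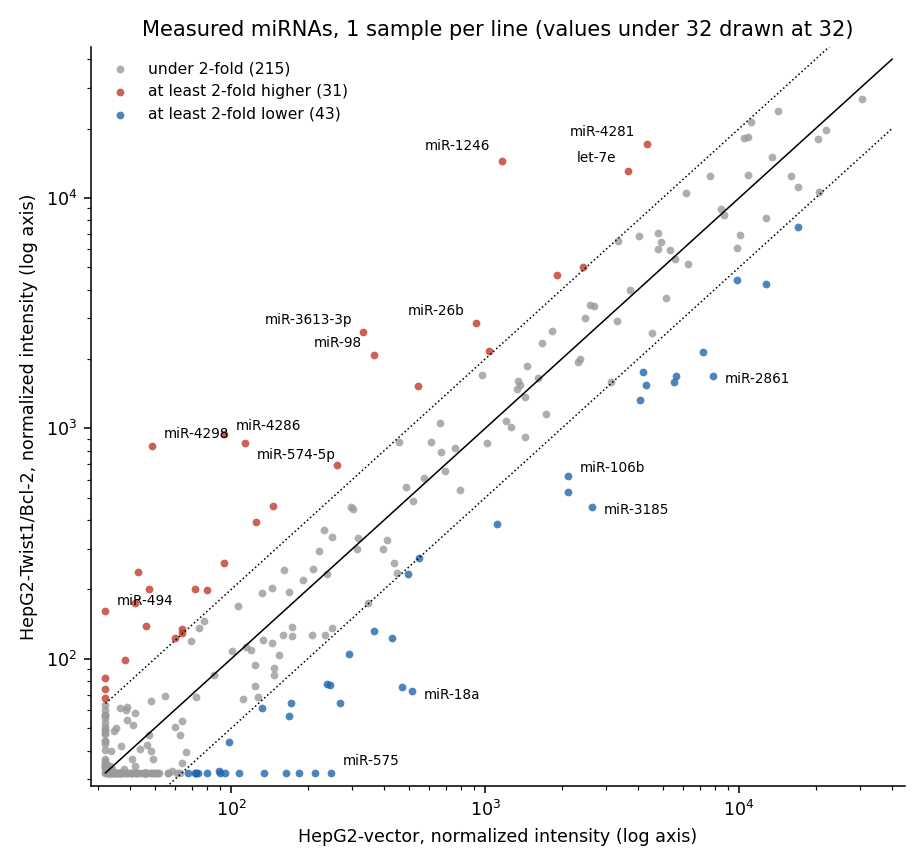
Each point is a measured miRNA (n = 289), with its normalized intensity in HepG2-vector (x) and in HepG2-Twist1/Bcl-2 (y) on log axes, 1 sample per line, values under 32 drawn at 32. The solid line marks equal values and the dotted lines 2-fold, with 31 miRNAs above them (red) and 43 below (blue).

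The let-7 family, which represses growth-promoting transcripts such as those of RAS, MYC and HMGA2 and keeps cells differentiated, was higher in HepG2-Twist1/Bcl-2. All 9 members were measured and all 9 were above 0 in the deposited values, although let-7i was at -0.05 after normexp and quantile normalization of the scanner intensities. Their median log2 ratio was 0.77, beside -0.10 for all measured miRNAs. Of the 9, 2 were called higher and 0 lower, beside 10.7% and 14.9% of all measured. let-7e was at 3636 in HepG2-vector, 3286 with Twist1 alone, 5426 with Bcl-2 alone and 13029 with both constructs, a log2 ratio to vector of 1.84 ± 0.35. miR-98 was at 365, 386, 408 and 2079 in the same order, with a log2 ratio of 2.51 ± 0.83. Both were thus highest in the line with both constructs. The spots of miR-98 were at 770.3, 432 and 830 in the vector line and at 3576, 2873 and 5796 in the double line, so they did not overlap. The smallest ratio of the family was that of let-7i, at 13484 and 15119 (0.17 ± 0.18), within the spot spread. For let-7i the double line was below HepG2-Twist1 (16041) and HepG2-Bcl-2 (18909). The remaining 6 lay between 0.70 for let-7b (7689 and 12470.2) and 0.94 for let-7f (11179 and 21380.0). let-7a stood at 14265 and 23879 (0.74 ± 0.16). Members that differ in 1 or 2 bases can pair with each other's probes, which was not tested.

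The miR-17 seed family, which is known to promote proliferation by repressing CDKN1A, was lower in HepG2-Twist1/Bcl-2. Of the 8 miRNAs on the array with this seed 6 were measured, the other 2 being under 32 in both lines. Of the 6, 5 were called lower and 0 higher, and the median log2 ratio was -1.57. miR-20a was at 5538 in HepG2-vector and at 1584 in HepG2-Twist1/Bcl-2, a log2 ratio of -1.81 ± 0.30. miR-17 was at 4304 and 1544 (-1.48 ± 0.11). miR-106b, from the cluster in MCM7, was at 2118 and 624 (-1.76 ± 0.23). The same miRNAs were nearer to the vector line in HepG2-Twist1 and HepG2-Bcl-2, which carried the other dye. Their values there were 5972 and 6296 for miR-20a, 3508 and 4288 for miR-17, and 2558 and 2129.9 for miR-106b. miR-106a (4054 and 1322, -1.62) and miR-20b (1111 and 385, -1.53) were lower as well. miR-93 was the exception, at 2324 and 1948 (-0.25 ± 0.13). Its ratio lay between -0.25 and 0.08 over the other ways of processing, so it had no settled direction.

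The miR-18 and miR-19 families had the lowest median of the lists described, -2.50 over 4 measured members of 4, with 3 called lower and 0 higher. miR-18a was at 517 in HepG2-vector, 623 with Twist1, 311 with Bcl-2 and 72.7 with both, a log2 ratio of -2.83 ± 0.20. miR-19b was at 471 in the vector line and at 75.9 in the double line (-2.63 ± 0.60). It was also below the vector line in the lines with a single construct, at 163 in HepG2-Twist1 and 216 in HepG2-Bcl-2. miR-18b was at 164 and under 32 in the double line, and so at least 5.13-fold lower in the deposited values (-2.36 on the log2 scale, -1.62 after normexp and quantile normalization). miR-19a was near the minimum, at 45.8 in the vector line and under 32 in the double line, which gives a bound short of 2-fold. The spots of miR-18a were at 883, 901 and 887 on array 1 and at 238, 232 and 255 on array 2, with no overlap.

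The measured miRNAs with the miR-25/92 seed lay close to 0, although genes of miR-92a and miR-25 lie in the same clusters as those above. Of 6 miRNAs on the array with this seed, 3 were measured, none was called, and the median log2 ratio was -0.05. miR-92a was at 8701 in HepG2-vector and 8400 in HepG2-Twist1/Bcl-2 (-0.05 ± 0.11), and miR-25 at 5360 and 5958 (0.15 ± 0.12). miR-92b, encoded elsewhere, was at 3293 and 2937 (-0.17 ± 0.09). The signs of miR-92a and miR-92b changed in some of the other ways of processing. In the miR-17-92 cluster on chromosome 13 (chr13:91350605-91351391, plus strand), miR-18a thus stood at -2.83, miR-17 at -1.48 and miR-92a at -0.05, where the probes of miR-92a and miR-19b also read a copy on chromosome X. In the cluster in MCM7 (chr7:100093560-100094074, minus strand), miR-106b stood at -1.76 and miR-25 at 0.15. In the paralog of the miR-17-92 cluster on chromosome X (chrX:134169378-134170278, minus strand), miR-106a stood at -1.62 and miR-18b at a bound of -2.36.

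**Figure D2:**
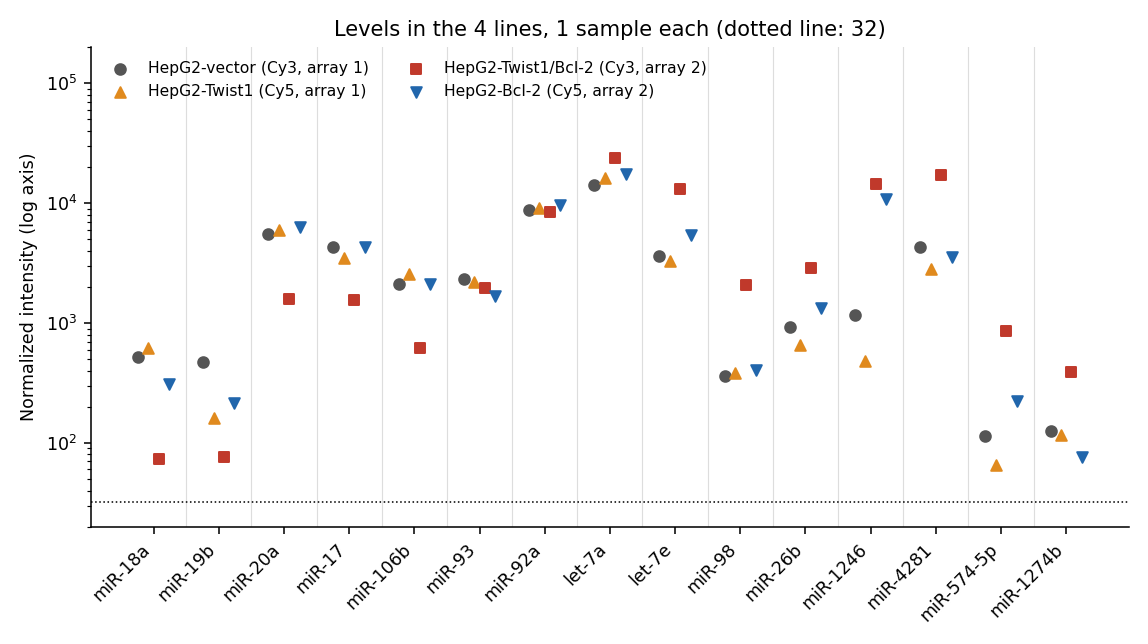
Normalized intensity (log axis) of 15 miRNAs in the 4 lines, 1 sample per line, with the dotted line at 32. HepG2-vector and HepG2-Twist1/Bcl-2 were labelled with Cy3, the other lines with Cy5. HepG2-Twist1/Bcl-2 (red squares) is the lowest of the 4 for miR-18a, miR-19b, miR-20a, miR-17 and miR-106b and the highest for let-7e, miR-98, miR-26b, miR-1246, miR-4281, miR-574-5p and miR-1274b.

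Among all 289 measured miRNAs, HepG2-Twist1/Bcl-2 had the highest value of the 4 lines for 98 and the lowest for 82. It had the highest for 29 of the 31 miRNAs called higher and the lowest for 38 of the 43 called lower, as the choice of the called miRNAs favours. The 2 called higher in which another line was above it were miR-10a and miR-29b-2*, both with the highest value in HepG2-Bcl-2.

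The miR-29 and miR-26 families, both known as tumor suppressors in liver cancer, went in different directions. The miR-29 family, which represses collagens, DNA methyltransferases and the anti-apoptotic MCL1, was lower in HepG2-Twist1/Bcl-2, with 3 of 3 measured, 2 called lower and a median log2 ratio of -1.25. miR-29a was at 4178 in HepG2-vector, 4595 with Twist1, 11728 with Bcl-2 and 1761 with both, so the double line and the Bcl-2 line lay on opposite sides of the vector line. Its log2 ratio was -1.25 ± 0.11, and -0.91 with the median of the scanner spots, short of 2-fold. miR-29c was at 135 and under 32 in the double line, a bound of -2.07 on the log2 scale (-1.45 after normexp and quantile normalization), and at 371 in HepG2-Bcl-2. miR-29b was near the minimum, at 42.7 and under 32. The miR-26 family, which represses EZH2, had 2 of 2 measured and 1 called higher. miR-26b was at 918 in HepG2-vector, 651 with Twist1, 1334 with Bcl-2 and 2873 with both, a log2 ratio of 1.65 ± 0.09. Its spots were at 1508, 1536 and 1444 on array 1 and at 4586, 4702 and 4259 on array 2, with no overlap. miR-26a was at 4788 and 6030 (0.33 ± 0.10), which was beyond 2 combined spot SDs and under 2-fold. Its raw spots overlapped, at 6783, 7003 and 6787 on array 1 and at 7784, 7729 and 6925 on array 2.

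The miR-30 family, which is known to repress SNAI1 in epithelial cells, had all 5 members measured, with 1 called lower and a median log2 ratio of -0.64. Over all measured miRNAs 14.9% were called lower, so 1 of 5 is near that share. miR-30e was at 549.8 and 273 (-1.01 ± 0.50), just past 2-fold and short of it with the scanner values less the empty spots (-0.85), and miR-30a at 3126 and 1592 (-0.97 ± 0.18), just short of it. miR-30b stood on the other side, at 1673 and 2350.0 (0.49 ± 0.51). The value of miR-30c, 5613 and 5440 in the deposited table, had 1 dim spot of 743 beside 7224 and 6263 on array 2. The miR-23/27/24 clusters had all 5 members measured, 1 called lower, again near the share over all, and a median of -0.69. miR-27a, known to hold back fat cell differentiation, was at 9778 and 4384 (-1.16 ± 0.09, but -0.96 with the scanner values less the empty spots), while miR-23a from the same precursor was at 21876 and 19696 (-0.15 ± 0.13) and miR-24 at 9770.4 and 6068 (-0.69 ± 0.10).

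**Figure D3:**
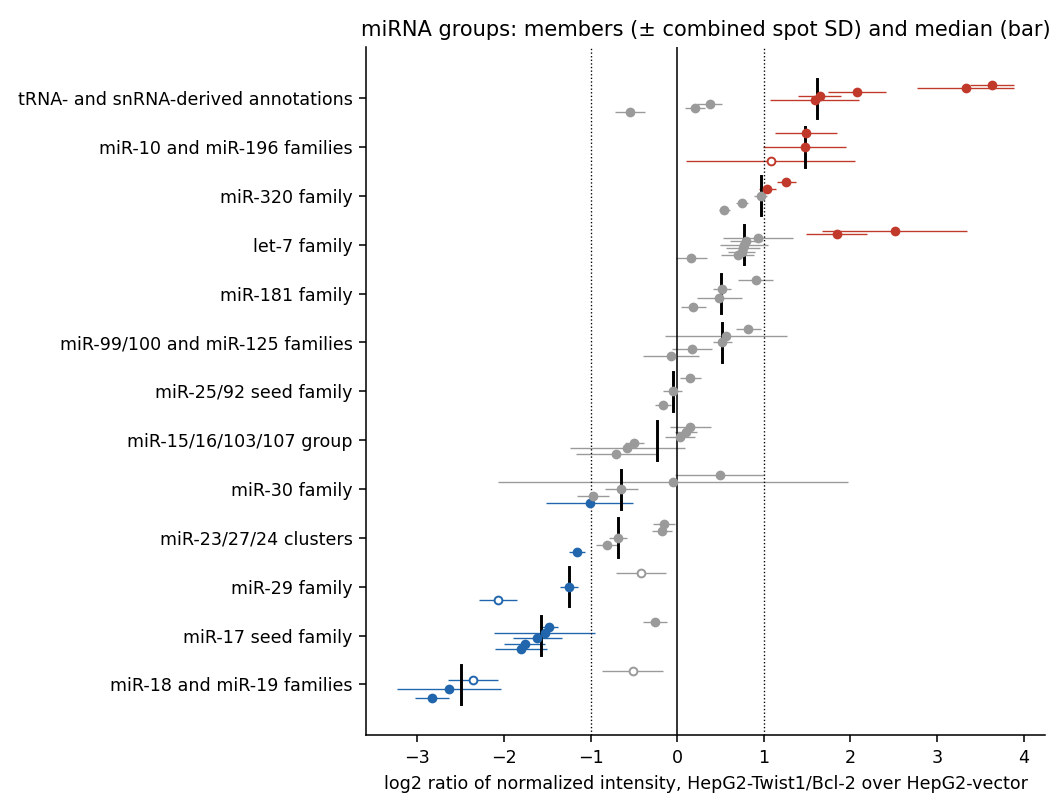
Log2 ratio of HepG2-Twist1/Bcl-2 over HepG2-vector for the measured members of 13 groups, each with its combined spot SD as a bar, and the group median as a vertical line. Open circles are bounds, dotted lines mark 2-fold. The tRNA- and snRNA-derived annotations are at the top with a median of 1.62, and the miR-18 and miR-19 families at the bottom with -2.50.

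Of 7 miRNAs known to repress Bcl-2, 6 were measured, with 1 called higher, 0 lower and a median log2 ratio of -0.15. Over all measured miRNAs 10.7% were called higher and 14.9% lower. miR-16 was at 5163 in HepG2-vector and 3669 in HepG2-Twist1/Bcl-2 (-0.49 ± 0.11) and miR-15a at 124 and 76.1 (-0.70 ± 0.46), while miR-15b, from another cluster with a copy of miR-16, was at 3714 and 3991. miR-34a, a target of p53 and the only measured member of its family, was at 249 and 136 (-0.87 ± 0.16). miR-181a was at 609 and 871 (0.52 ± 0.11). The called member, miR-365, was at 147 and 462 (1.66 ± 0.65), and at 100.5 in HepG2-Twist1 and 362 in HepG2-Bcl-2. The wider group of miR-15, miR-16, miR-103 and miR-107 had 6 of 7 measured, none called and a median of -0.23.

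miR-10b is known in breast cancer cells as a miRNA that Twist1 induces, and the miR-10 and miR-196 families lie in the HOX gene clusters. Of 4 members 3 were measured, and all 3 were called higher, with a median log2 ratio of 1.47. miR-196a was at 544 in HepG2-vector, 533 with Twist1, 447 with Bcl-2 and 1523 with both (1.48 ± 0.36). miR-10a was at 72.2 and 200.5 (1.47 ± 0.48). miR-10b itself was near the minimum, under 32 in HepG2-vector and HepG2-Twist1, with 67.6 in the double line and 56.7 in HepG2-Bcl-2. Its log2 ratio, a bound of 1.08 in the deposited values, was within 2 combined spot SDs (± 0.97) and short of 2-fold after normexp and quantile normalization (0.66) and on log2(value + 32) (0.99).

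Among miRNAs linked to EMT, the miR-200 family, which represses ZEB1 and ZEB2 and so keeps cells epithelial, had 0 of 5 members at 32 in either line, with values up to 24.8. Of the 7 miRNAs of the cluster that holds miR-424 and miR-503, 3 were measured and 2 were called lower. miR-424 was at 80.3 in HepG2-vector and under 32 in HepG2-Twist1/Bcl-2, beside 820 in HepG2-Bcl-2. Its bound of -1.33 on the log2 scale was within 2 combined spot SDs (± 0.81), its spots overlapped (205, 215 and 148 against 162.5, 145 and 140), and it was at -0.88 after normexp and quantile normalization. The other call, miR-450b-5p, rested on 1 spot of 391 beside 106.8 and 94.6. miR-221, which represses CDKN1B and is often raised in liver cancer, was at 1033 and 2174 (1.07 ± 0.24), and at 2074 in HepG2-Bcl-2. Its cluster partner miR-222 was at 2473 and 3020.4 (0.29 ± 0.15), and miR-21 at 15968 and 12404 (-0.36 ± 0.27). miR-181a to miR-181d (4 of 4 measured, median 0.50) and the miR-99/100 and miR-125 families (5 of 5, median 0.52) had no member past 2-fold. In the former, miR-181b turned from 0.19 to -0.05 after normexp and quantile normalization.

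The miR-320 family, whose precursors are made without Drosha, had 5 of 5 measured and above 0, with 2 called higher and a median log2 ratio of 0.96. miR-320e was at 1926 in HepG2-vector, 1691 with Twist1, 2537 with Bcl-2 and 4621 with both (1.26 ± 0.11). miR-320d was at 2436 and 5016 (1.04 ± 0.10). miR-320b (0.96), miR-320c (0.75) and miR-320a (0.55) followed, all beyond the spread of their spots. These miRNAs are near-identical, so 1 RNA could give signal at several of the probes, which was not tested.

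A group of miRBase entries whose sequences also match tRNAs or small nuclear RNAs had 8 of 9 members measured, with 5 called higher, 0 lower and a median log2 ratio of 1.62. miR-1246, whose sequence is also found in U2 small nuclear RNA, was at 1159.8 in HepG2-vector, 483 with Twist1, 10769 with Bcl-2 and 14413 with both. It was 12.4-fold higher in the double line than in the vector line, with spots at 2106, 1988 and 1725 against 20316, 18977 and 15542. Both lines on array 2, which were also the lines with Bcl-2, were thus high and both on array 1 low. miR-1274b, which matches a lysine tRNA, was at 125, 117, 75.8 and 391.6 in the same order of lines, so only the double line was high. miR-4286 (93.7 and 942), miR-1274a (47.6 and 201, log2 ratio 2.08, and 1.47 after normexp and quantile normalization) and miR-1260 (46.2 and 139) were called as well. The lines were closer in miR-1280 at 10858 and 12553 (0.21 ± 0.12) and miR-720 at 10112.7 and 6935 (-0.54 ± 0.17). The median of this group depended on the dim members and lay between 0.38 and 2.52 over the other ways of processing.

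Other miRNAs at the top of the order belonged to none of these groups. miR-3613-3p was at 332 in HepG2-vector, 186 with Twist1, 2378 with Bcl-2 and 2624 with both (2.98 ± 1.46, and 1.77 after normexp and quantile normalization). Both lines of array 2, which both carry Bcl-2, were again high. The spots of miR-3613-3p overlapped, at 1076, 735 and 521 for the vector line and at 3536, 4384 and 938 for the double line. miR-574-5p was at 114 and 860.0 (2.92 ± 0.45), and the opposite arm of its hairpin, miR-574-3p, at 64.2 and 129 (1.01 ± 0.69, but 0.74 on log2(value + 32)). miR-4281 was at 4335 in the vector line and 17184 in the double line (1.99 ± 0.18), with 2826 in HepG2-Twist1 and 3571 in HepG2-Bcl-2. miR-494, of the large imprinted cluster on chromosome 14, was under 32 in the vector line and at 162, so at least 5.06-fold higher. The highest ratio of the 289 was that of miR-4298, at 48.9 and 841, 17.2-fold higher, with a log2 ratio of 3.19 after normexp and quantile normalization, and with 142.5 in HepG2-Bcl-2 and 42.0 in HepG2-Twist1. miR-483-5p, hosted by IGF2, was at 42.8 and 237 (2.47, and 1.85 on log2(value + 32)), and miR-335, hosted by MEST, at 94.1 and 261. miR-193b (80.5 and 199.95) and miR-365 share a cluster on chromosome 16 (chr16:14303967-14309371, plus strand) and were both called higher. The miR-365 probe also reads a copy on chromosome 17. miR-193b*, the opposite arm of the miR-193b hairpin, was at 46.8 and 42.4 and was not called.

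At the other end, miR-575 was at 247 in HepG2-vector and under 32 in HepG2-Twist1/Bcl-2, at least 7.72-fold lower, and miR-1281 was at 214 and under 32, at least 6.69-fold lower. These bounds hold for the deposited values, and on the log2 scale miR-575 moved from -2.95 to -1.99 and miR-1281 from -2.74 to -1.91 after normexp and quantile normalization. miR-3185 was at 2645 and 458 (-2.53 ± 0.31), with 2945 in HepG2-Twist1 and 2385 in HepG2-Bcl-2. miR-140-3p, best known from cartilage, was at 430.4 and 123 (-1.81 ± 0.35), and below the vector line in the other lines too, at 104 and 67.9. miR-3124 was at 185 and under 32, but this call rested on 1 of its 3 spots on array 1 (-2.53 ± 2.59, and -0.17 with the median of the spots). miR-148b, with 268 and 64.6, was called lower (-2.05, and -1.34 after normexp and quantile normalization), while miR-152 of the same seed was at 232 and 361 (0.64 ± 0.38). For several hairpins the 2 arms were not alike. let-7b was at 0.70 and let-7b* at a bound of -1.22 (-0.82 after normexp and quantile normalization). miR-191 was at 8515 and 8916 while miR-191* was at 108 and under 32, at least 3.37-fold lower. miR-23a* (63.9 and 135) was called higher where miR-23a was not called, but was at 0.81 after normexp and quantile normalization. Over all passenger strands marked with a star, 37 of 187 were measured, 2 called higher and 5 lower, with a median of -0.17. Of the other 252 measured strands, 29 were called higher and 38 lower, with a median of -0.10.

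Of the 43 miRNAs called lower, 12 had targets of 70% G and C or more. This class held 47 of the 289 measured miRNAs, and 2 of them were called higher. miR-2861 (7918 and 1694, -2.22 ± 0.15), miR-1915 (12722 and 4230.4, -1.59 ± 0.18), miR-663 (7189 and 2154, -1.74 ± 0.20), miR-1469 (5646 and 1689, -1.74 ± 0.25) and miR-149* (2112 and 528) were of this kind. In HepG2-Bcl-2, on the same array as the double line, miR-2861 was at 4052, miR-1915 at 6938, miR-663 at 3834 and miR-1469 at 2672, while in HepG2-Twist1 they were at 7122, 16286, 6578 and 6249. The values of the array 2 lines, which both carry Bcl-2, were below those of both array 1 lines for these 4. Of the same 126 miRNAs bright in both lines, the 12 whose targets had under 40% G and C had a median log2 ratio of 0.76. let-7a, let-7f, let-7g and miR-98, of the let-7 family described above, were among these 12. The 50 of 40 to under 50% had 0.11, the 33 of 50 to under 60% had -0.06, the 8 of 60 to under 70% had -0.25, and the 23 of 70% or more had -0.61, with 2 called higher and 8 lower. Across them, which share their libraries and are not independent replicates, Spearman's rho between G and C share and log2 ratio was -0.40. Over all 289 measured it was -0.13, and the medians of the same classes were -0.07, -0.02, -0.08, -0.12 and -0.27 (33, 73, 80, 56 and 47 miRNAs), with 6 called higher and 7 lower in the class under 40%. miR-4281, with 88.9% G and C, lay far from this trend. Without the targets of 70% or more, 29 miRNAs were higher and 31 lower of 242.

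**Figure D4:**
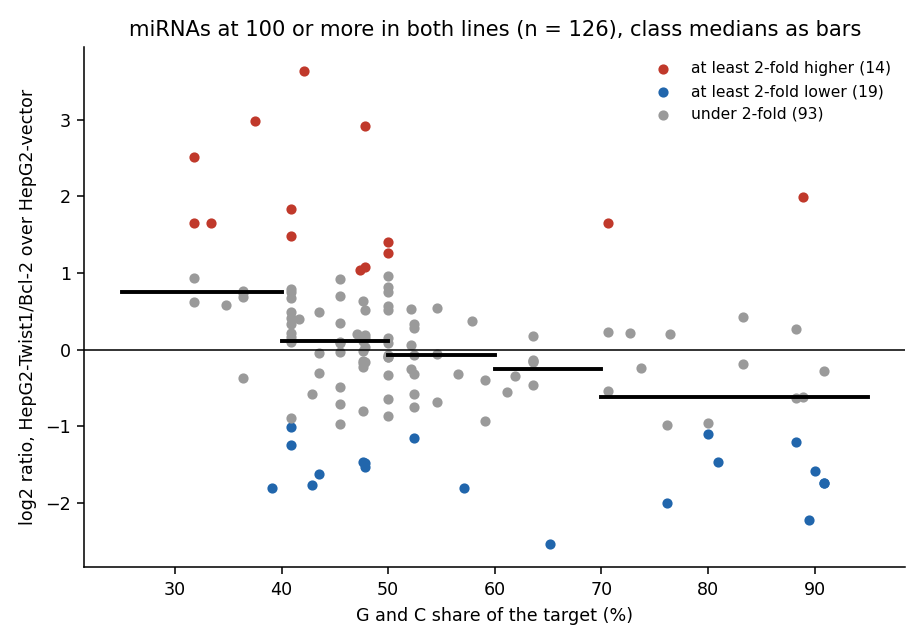
Log2 ratio of HepG2-Twist1/Bcl-2 over HepG2-vector (y) against the share of G and C in the probe's target in percent (x) for the 126 miRNAs that reached 100 in both lines, with class medians as bars. The medians go from 0.76 in the class under 40% to -0.61 in the class of 70% or more.

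The control probes of the arrays also differed between the lines. The 6 probes for 5S ribosomal RNA follow each other along it, with 2 to 5 bases shared between neighbours, and were read at 4 spots per array. In the Cy3 scanner intensities, 5S-b1 had a mean of 12674 ± 615 (SD, 4 spots) for HepG2-vector and 860 ± 78.4 for HepG2-Twist1/Bcl-2, 17.9-fold lower above the empty spots. 5S-b2 was 7.83-fold lower and 5S-b4 4.46-fold lower, 5S-b3 1.75-fold and 5S-b5 1.40-fold lower. 5S-b6 was at 46479 ± 1448 and 57183 ± 5124, 1.23-fold higher. On the log2 scale the ratios of these probes to one RNA ranged from -4.16 to 0.30. Of 10 external calibration probes that read over 1000 on both arrays, the median log2 ratio was -0.21, and 9 of them lay within the range from -0.39 to 0.24. The median empty spot read 110.5 on array 1 and 159 on array 2. The part of RNA quality, G and C content or the array in the miRNA differences was not tested, since each line was on 1 array.

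The markers of liver cells were few in both lines. Of 6 hepatocyte miRNAs, 4 were measured and 1 was called lower, beside 14.9% of all measured miRNAs. This was miR-192, at 365 in HepG2-vector, 446 with Twist1, 369 with Bcl-2 and 132 with both (-1.46 ± 0.55, and -0.99 without repeat spot 2 of the scanner values). miR-194, which has a gene beside that of miR-192, was at 114 and 112. miR-122, the most abundant miRNA of the liver, was under 32 in both lines, at 9.91 and 9.17, so the defining marker of hepatocytes was not detected in either. The 6 summed to 596 in the vector line and 295 in the double line. Of the marker lists of other cells, none of 5 muscle, 6 fibroblast and mesenchymal and 9 pluripotent cell miRNAs reached 32 in either line. Among 7 blood cell miRNAs, miR-486-5p alone was measured, at 48.3 and 65.8. Of 7 neuron miRNAs 3 were measured and none called, the sum being 1150.1 and 1003 and most of it miR-128, at 1015 and 867.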

How the data were processed

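Total RNA of each line was hybridized to a two-colour LC Sciences microarray, read with a GenePix scanner. The authors subtracted background, filtered spots and normalized by cyclic LOWESS. The deposited normalized intensity values, 1 per miRNA and sample on a linear scale, were used, with values under 32, the authors' threshold, set to 32 before log2. The deposited scanner spot intensities (Cy3, 3 spots per miRNA, no background column) gave the spot SDs. They followed the normalized values closely in HepG2-vector and HepG2-Twist1/Bcl-2 (r on the log2 scale 0.999 over 146 miRNAs and 0.997 over 142).

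A miRNA was measured at 32 or more in either line and called at 2-fold. The methods' t-test needs at least 2 samples per group and was not run. The number of arrays limits the precision. The 26 lists and the miRNAs were chosen with earlier results of these data known. Named were, among miRNAs at 100 or more in both lines, the 12 highest and 12 lowest ratios, the 6 highest bounds in each direction, the 10 highest mean intensities, up to 4 members of each list, and miR-26a, miR-26b and miR-424, 96 in all. miR-4298, miR-4286, miR-483-5p, miR-1274a, miR-1260, miR-335, miR-193b, miR-193b*, miR-574-3p, miR-30e, miR-15a, miR-148b, miR-152, miR-23a*, let-7b, let-7b* and miR-191 were chosen after their values were seen. RefSeq (GRCh38.p14) held a mature sequence for 1061 of the 1212 probes and 246 of the 289 measured. Hairpins within 10000 bases were taken as a cluster.

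Alternatives were other floors and minimums, median-centring, scanner values after normexp (offset 50) and quantile normalization with limma 3.58.1 in R 4.3.3 or less the empty spots, and other folds. Further steps ran in Python 3.11.15 (pandas 2.3.3, numpy 2.4.6, scipy 1.17.1).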

Additional observations from a re-analysis of the deposited data

Results flagged for a closer look

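Some signals lay outside the miRNA values compared. The control probe 5S-b6 was 0.30 higher in HepG2-Twist1/Bcl-2 on the log2 scale, whereas the other 5 probes of 5S ribosomal RNA were lower there. The calibration probe Ctr10-3P read 1703 on array 1 and 9852 on array 2, a log2 ratio of 2.61, while the other 9 calibration probes lay between -0.39 and 0.24.

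A further 46 miRNAs were under 32 in both lines compared and at 32 or more in HepG2-Twist1 (16) or HepG2-Bcl-2 (31), 1 of them in both. The 4 that reached 100 did so in HepG2-Bcl-2, which also carried Bcl-2 and shared the array with HepG2-Twist1/Bcl-2. miR-146a, an inflammation-linked miRNA, was at 8763 there and at 3.19, 4.66 and 1.91 in HepG2-vector, HepG2-Twist1 and HepG2-Twist1/Bcl-2. miR-200b was at 606 in HepG2-Bcl-2 and at 3.97 and 6.81 in the lines compared. miR-146b-5p was at 283 and miR-155 at 192 in HepG2-Bcl-2, and both were under 32 in the other 3 lines. These samples were not tested.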

How the results depend on the processing

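All 74 called miRNAs kept their direction in each alternative that gave them a value. The other floors and minimums and median-centring reuse the deposited values and could not reverse a 2-fold call. Only the alternatives from scanner values could have done so. At least 2-fold remained 70 of 74 with the scanner values less the empty spots and 57 of 74 after normexp and quantile normalization. The count of higher miRNAs, 31, moved to 65 with the scanner values less the empty spots, to 68, 64 and 66 with repeat spot 1, 2 or 3 of those values left out, and to 67 with the median of the spots, while the count of lower miRNAs, 43, lay between 37 and 45 there. At a minimum of 100 in both lines 14 were higher and 19 lower, at 1.5-fold 62 and 75, and at 3-fold 16 and 21. The cause of the larger count of higher miRNAs was not tested.

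No paired analysis was possible because each line had 1 sample. Signs of the medians of the miR-25/92, miR-15, miR-16 and miR-103, Bcl-2-targeting and neuron lists, of the 4 classes under 70% G and C, and of star and other strands changed in at least 1 alternative, the class under 40% from -0.07 to as much as 0.83 where bright miRNAs alone were kept or the scanner values used. Dim spots limit the rest: the miRNA spot median was 116 on array 1 and 148 on array 2, beside 110.5 and 159 for empty spots. The calls on miR-3124, miR-3713, miR-450b-5p and miR-29b-2* rested on 1 spot each.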
